A study of Mus musculus with 8 samples.

Results

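Korean red ginseng (KRG) was compared with no ginseng in the liver of ovariectomized mice. The comparison sets 2 liver libraries from mice given ginseng, 1 with KRG alone and 1 with bisphenol A (BPA) and KRG, against 2 liver libraries without it, 1 control and 1 with BPA. These are 4 of the 8 libraries of the series; the others are from uterus. The mice were female CD-1, an outbred stock, ovariectomized at 6 weeks of age and rested for 1 week. BPA was given at 200 mg/kg/day and KRG at 1.2 g/kg/day by mouth for 7 days, and control means ovariectomized mice given neither. Whether each library came from 1 mouse or from several, and whether both organs of a group came from the same mice, the labels leave unsaid. The libraries were made by 3' end sequencing (QuantSeq), in which each transcript gives reads near its polyadenylated end. The series asks whether ginseng alters what BPA does to these tissues; the values below bear on ginseng with and without BPA.

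Hepatocytes make most of the proteins of blood plasma. On inflammatory signals such as interleukin-6 they raise the acute phase proteins, among them the serum amyloids A, haptoglobin and lipocalin 2. They also make cholesterol and fatty acids under the SREBP transcription factors, which respond to sterols and to insulin. In rodents many liver genes differ between the sexes through the pattern of growth hormone secretion, and the major urinary proteins (MUPs), carriers of pheromones, are a known case that is higher in males.

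The 4 libraries held 12372073 to 15290950 counts each. Levels are in CPM, which puts the counts of every library on 1 scale, and where a gene has 4 values they belong, in turn, to the control library, the BPA library, the KRG library and the library given both. The hepatocyte markers summed to between 84877 and 91143 CPM, and albumin (Alb) stood at 12579, 12276, 13848 and 14583 CPM, so the markers of the labelled tissue were abundant in every library. The BPA library stood apart by RNA of another organ: 19 markers of pancreatic acinar cells summed to 2089 CPM there, with 0 of them at 0, against 235 CPM in control (11 at 0), 157 with KRG (1 at 0) and 178 with both (4 at 0). Cela1 made up 233 of the 235 CPM in control. Skeletal muscle markers summed to 208, 8.11, 579 and 5.04 CPM and erythroid markers to 4513, 9566, 6775 and 2140 CPM. The sides overlapped in the muscle and erythroid sums, while the acinar sum was lower in both ginseng libraries, and several counts below are also given without the BPA library.

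Few genes separated the sides by a wide margin. Of the 6705 genes that averaged at least 10 CPM over the 4 libraries, 812 (12.1%) were higher in both ginseng libraries than in both others, 1034 (15.4%) were lower in both, and 4859 overlapped. The median difference over all genes was -0.01 as log2(CPM + 1), a scale on which low genes differ by less than their ratio. In 7 genes (0.104%) the nearest libraries of the 2 sides still differed at least 2-fold with ginseng higher, and in 24 (0.358%) with ginseng lower. The 7 were Saa1, Saa2, Ccl27a, Snrnp25, S100a9, Eif4ebp2 and Lcn2. The filter averages both sides, so a gene high on 1 side can pass through that side. S100a9 was under 10 CPM in all but the library given both and passed through it. Of the 24, 15 were counted in the MUP family and 4 in a group around Il11ra2. That group holds copies of a receptor gene (Il11ra2, Gm13305) and of a chemokine gene (Ccl27b, Gm13306). The other 5 were Hsd3b5, LOC100048884, Cwc22, Serpina12 and Cyp7b1. Of these, Hsd3b5 and Cwc22 were under 10 CPM in both ginseng libraries and passed the filter through the others. The genes just inside this margin were Il11ra2, with a gap of -1.02, and Gm13305, at -1.03, and the genes just outside it were Ly6a at -0.97, Gm2002, a further member of the Il11ra2 group, at -0.96 and Dusp1 at 0.96. Splitting the same 4 libraries by BPA gave 1450 genes (21.6%) higher and 1158 (17.3%) lower, with 7 (0.104%) and 12 (0.179%) past a 2-fold gap.

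**Figure D1:**
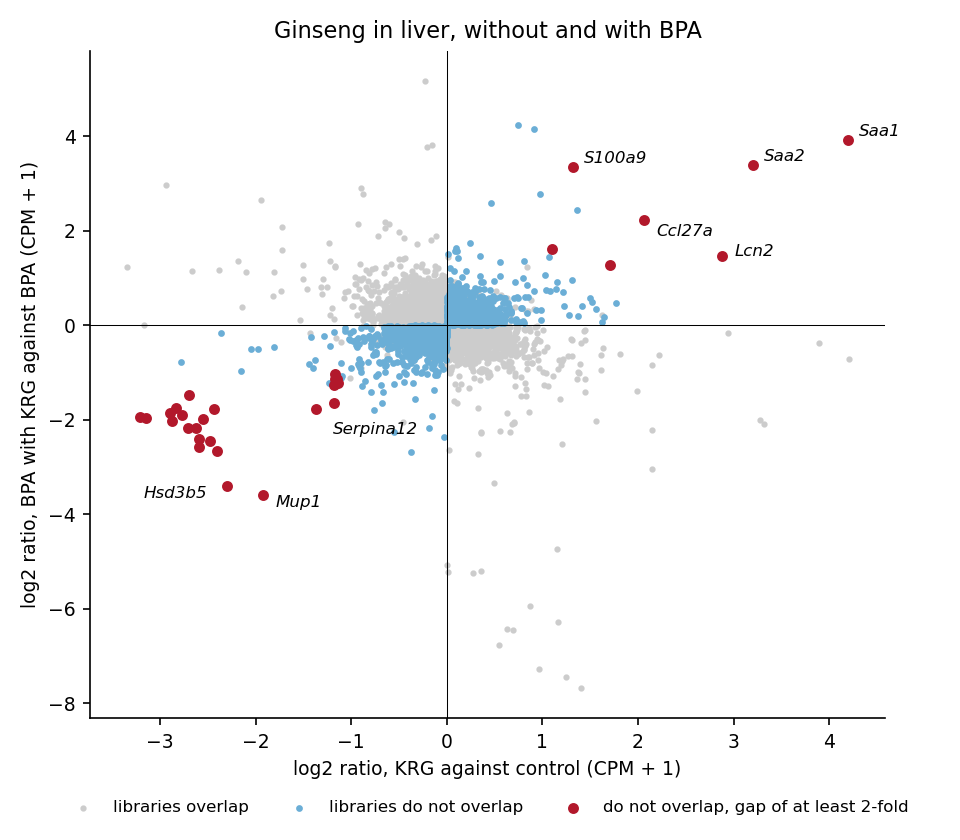
Each point is 1 of 6705 liver genes, with the log2 ratio of KRG to control on the horizontal axis and the log2 ratio of BPA with KRG to BPA on the vertical axis, both on CPM + 1. Saa1 lies at 4.20 and 3.91 and Hsd3b5 at -2.30 and -3.40, while most genes lie near 0; the red points are the 7 genes higher and 24 lower whose nearest libraries differ at least 2-fold.

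No gene passed edgeR's quasi-likelihood test with BPA as a term: 0 were higher (0.0%) and 0 lower (0.0%) at an adjusted p under 0.05, the smallest adjusted p being 0.0788. At an unadjusted p under 0.05 the same test had 75 higher (1.12%) and 144 lower (2.15%). DESeq2 on the same model called 12 higher (0.179%) and 37 lower (0.552%), of which 16 were of the MUP family and 5 of the Il11ra2 group. The 2 sides hold 2 libraries each and the model leaves 1 residual degree of freedom, and an exact permutation test of 2 against 2 cannot go below a two-sided p of 0.3333. Each treatment has 1 library in liver. The edgeR and DESeq2 p-values therefore set the ginseng effect against the difference between its ratios without and with BPA. That spread, pooled in part over genes, is not one between replicate libraries or animals of a treatment. Scaling by total counts, in place of the trimmed mean, turned the split of non-overlapping genes to 1145 higher (17.1%) and 708 lower (10.6%), with a median difference of 0.04 over all genes. Without the BPA library 2083 genes (31.1%) were higher and 2142 (31.9%) lower. Leaving out a library can only keep or raise a count of non-overlapping genes, so such counts are given beside the share of all genes.

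**Figure D2:**
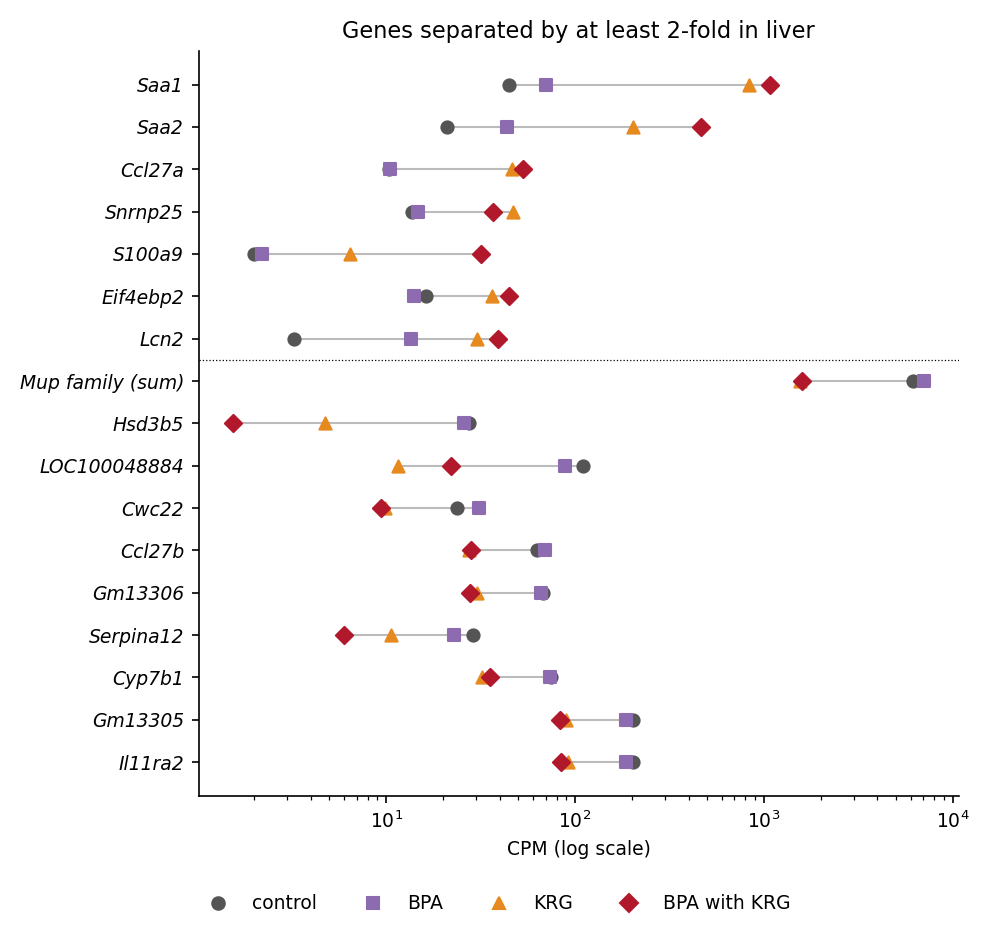
CPM on a log axis in the 4 liver libraries for the genes whose nearest ginseng and no-ginseng libraries differ at least 2-fold, with the 18 MUP family genes as 1 sum; points are single libraries and grey lines span them. Genes above the dotted line were higher with ginseng (Saa1 at 838 and 1076 against 44.7 and 70.5 CPM) and those under it lower (the MUP sum at 1551 and 1598 against 6139 and 7077 CPM).

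The serum amyloid genes held the widest margin. Saa1 (chr7:46740497-46743181), which codes for a lipoprotein-bound acute phase protein, stood at 44.7, 70.5, 838 and 1076 CPM. Both ginseng libraries were far above both others, 18.8-fold without BPA and 15.3-fold with it (log2 difference 4.08 ± 0.20 SE, edgeR adjusted p = 0.0788, DESeq2 adjusted p = 2.1e-54). Saa2 (chr7:46751833-46754313), its neighbour on the opposite strand, stood at 21.1, 43.5, 202 and 463 CPM, a log2 difference of 3.34 ± 0.17 (SE, edgeR adjusted p = 0.0788). The 2 sides did not overlap in either gene. BPA alone lay above control and the combined library above KRG alone in both genes, by smaller steps. Of the 50-base stretches in the last 300 bases of Saa1 transcripts, 9.56% also occur in Saa2, and the counting of reads with several matches is not given in the sources used here. The 2 genes start from promoters that are nearly copies of each other. RefSeq's windows from 250 bases before to 50 after each start (GRCm38.p6) align with 287 identical columns of 301, or 95.3%, and 2 gaps. They are shown because both genes were high in the same libraries; capitals mark the bases that differ between the windows, for Saa1 at chr7:46742931-46743230 on the minus strand and for Saa2 at chr7:46751583-46751882 on the plus strand.
Saa1: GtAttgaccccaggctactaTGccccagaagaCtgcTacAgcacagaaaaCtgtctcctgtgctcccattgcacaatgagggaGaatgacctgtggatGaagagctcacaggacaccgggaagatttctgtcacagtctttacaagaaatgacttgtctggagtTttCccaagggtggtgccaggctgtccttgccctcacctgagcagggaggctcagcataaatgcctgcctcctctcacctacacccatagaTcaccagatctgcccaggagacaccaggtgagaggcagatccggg
Saa2: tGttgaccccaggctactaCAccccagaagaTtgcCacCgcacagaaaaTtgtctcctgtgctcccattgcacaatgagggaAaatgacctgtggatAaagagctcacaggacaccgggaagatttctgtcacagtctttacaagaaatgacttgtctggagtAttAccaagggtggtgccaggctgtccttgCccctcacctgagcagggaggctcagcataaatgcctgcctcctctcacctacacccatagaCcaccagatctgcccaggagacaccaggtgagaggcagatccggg

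The acute phase list as a whole, with Saa1 and Saa2 in it, had a smaller median difference than these 2 genes. Of 27 measured members, 9 were higher without overlap (33.3%, against 12.1% of all genes), 0 were lower and 18 overlapped, and the median difference was 0.23 (log2) against -0.01 over all genes. Lcn2, a binder of bacterial siderophores, stood at 3.27, 13.6, 30.4 and 39.3 CPM (log2 difference 2.32 ± 0.46 SE, edgeR adjusted p = 0.76). Haptoglobin (Hp), which captures free hemoglobin, stood at 2290, 4313, 4699 and 7234 CPM. Its BPA library was close under the KRG library, so that the sides were parted by a gap of 0.12 (log2). Lrg1, a secreted glycoprotein, stood at 169, 274, 324 and 342 CPM, and Itih4, Hpx and Fga were parted by gaps of 0.04, 0.03 and 0.09. The remaining classical members overlapped between the sides: C-reactive protein (Crp) at 414, 524, 439 and 483 CPM, Orm1 at 1031, 1270, 1303 and 1054, Fgb at 5225, 4072, 4495 and 4994, and the transcription factor Stat3 at 157, 168, 155 and 175. Without the library given both, the median difference of the list was 0.03, and without the BPA library 22 members were higher (81.5%, against 31.1% of all genes) and 3 lower. The metallothioneins, metal-binding proteins that share several of the same inducers, were higher too: Mt1 stood at 477, 786, 1114 and 1037 CPM and Mt2 at 977, 2446, 3337 and 3375. For both genes the step from control to BPA was in the same direction as the step with ginseng, and the sides did not overlap. Their edgeR adjusted p was 0.999.

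Markers of immune cells lay beside these values. The calgranulins S100a9 and S100a8, the chief cytosolic proteins of neutrophils, stood at 1.98, 2.21, 6.46 and 31.8 CPM and at 5.12, 7.13, 10.99 and 55.0 CPM. Both were above the no-ginseng libraries in both ginseng libraries, and most in the combined one. Without ginseng both were under 10 CPM, so they passed the filter through the libraries in which they were high. The 14 neutrophil markers in the files summed to 16.0, 26.7, 54.6 and 153 CPM, with 1, 2, 3 and 1 of them at 0, and Lcn2 is in this list as well as in the acute phase list. Macrophage markers had 4 of 9 members higher (44.4%, against 12.1% of all genes) and 0 lower. Their median log2 ratio with ginseng was -0.004 without BPA and 0.63 with it. Marco, a scavenger receptor, stood at 12.7, 10.2, 17.9 and 66.8 CPM, and Cd5l, a secreted protein of Kupffer cells, at 294, 242, 347 and 376. The macrophage sums were 781, 643, 805 and 1018 CPM. Endothelial markers, with 4 of 11 higher (36.4%, against the same 12.1%) and 0 lower, summed to 555, 570, 593 and 686 CPM, and Fcgr2b, the Fc receptor of liver sinusoids, stood at 22.9, 22.0, 32.4 and 31.7. In bulk liver, more cells of a type and more RNA per cell cannot be told apart. Antigen presentation had 5 of 9 genes higher (55.6%, against 12.1%) and 2 lower (22.2%, against 15.4%). The widest gap in it was that of H2-Aa, a class II chain, at 7.49, 9.50, 12.9 and 18.8 CPM, which also passed the filter through the ginseng libraries. Of 19 lymphocyte markers 14 were in the files, without Ighm, Igkc, Trac, Trbc1 and Trbc2. Those 14 stayed between 6.06 and 7.30 CPM in sum, with no member passing the filter. The part of these cells in the acute phase values was not tested.

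Major urinary protein transcripts were less abundant with ginseng than without. The 17 genes of the list that passed the filter were all lower in both ginseng libraries (100%, against 15.4% of all genes), with a median difference of -2.37 (log2), and 14 had a gap of at least 2-fold. With Gm2083, which RefSeq lists as a synonym of Mup13, the family of 18 summed to 6139, 7077, 1551 and 1598 CPM. The sum was 3.96-fold lower with KRG than in control and 4.43-fold lower with BPA and KRG than with BPA. Mup2 (chr4:60135913-60139977) stood at 1175, 1129, 159 and 276 CPM (log2 difference -2.46 ± 0.28 SE, edgeR adjusted p = 0.397, DESeq2 adjusted p = 1.5e-14). Mup1 stood at 236, 1029, 61.6 and 84.8 CPM, so its 2 no-ginseng libraries differed more from each other than the 2 with ginseng. Mup3, whose 3' end is nearly its own, stood at 1385, 918, 800 and 342 CPM, a smaller difference of -1.11 ± 0.23 (SE, edgeR adjusted p = 0.815). In Mup20 (21.6, 44.8, 19.4 and 11.1 CPM) and Mup21 (26.6, 37.9, 17.8 and 7.13 CPM) the gaps were -0.15 and -0.55. Members of this family are near-identical: all of the 50-base stretches in the last 300 bases of Mup2 and 96.6% of those of Mup7 occur in other genes, against 5.17% for Mup3. The split of reads among members is therefore uncertain, and the genes are not separate observations.

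Among other genes known to be higher in male mouse liver, 9 of 16 measured were lower (56.2%, against 15.4% of all genes), 0 were higher and 7 overlapped, with a median of -0.61 (log2). Without the BPA library 13 were lower (81.2%, against 31.9%) and 2 higher. Hsd3b5 (chr3:98618636-98645534), a male-specific steroid reductase of mouse liver, stood at 27.3, 25.9, 4.74 and 1.55 CPM. Both ginseng libraries were under 10 CPM, so the gene passed the filter through the libraries without ginseng. It rested on 427, 316, 69 and 20 counts, and the combined library had a 95% exact Poisson interval of 0.95 to 2.39 CPM, for counting error only. The log2 difference was -3.20 ± 0.44 (SE, edgeR adjusted p = 0.404). Cyp7b1 (chr3:18071944-18243890), which hydroxylates oxysterols and steroids, stood at 74.3, 73.7, 32.4 and 35.3 CPM. Within each side the 2 libraries nearly coincided, and the sides differed by -1.13 ± 0.16 (log2, SE, edgeR adjusted p = 0.404). Nudt7, a peroxisomal coenzyme A hydrolase, stood at 786, 617, 368 and 292 CPM. Igfbp2, which binds insulin-like growth factors, stood at 426, 216, 180 and 92.7 CPM, with BPA lower than control and the combined library lower than KRG. Cyp2d9, a steroid hydroxylase, stood at 137, 254, 109 and 85.9 CPM, and Ces2a, a carboxylesterase, at 196, 190, 151 and 28.5, where the combined library alone was far from the rest. Keg1, C8b and Oat were parted by gaps of 0.19 or less in size.

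Genes known to be higher in female liver were mixed. Of 27 measured, 6 were higher (22.2%, against 12.1% of all genes) and 3 lower (11.1%, against 15.4%), and the median ratio was -0.19 without BPA and 1.01 with it. In the 4 genes named next the BPA library was the lowest. Cyp3a44 stood at 31.6, 9.26, 60.3 and 182 CPM, and Sult3a1, a sulfotransferase, at 133, 49.0, 279 and 134. For Sult3a1 the lower of the ginseng libraries was level with control, at a gap of 0.01. Cyp2a4 stood at 365, 57.5, 192 and 259 CPM and A1bg at 1663, 239, 1672 and 655, with overlapping sides. Without the BPA library the list's median was -0.15. Among growth hormone signalling genes, whose output drives the sex-biased sets, 1 of 18 was higher (Jak2) and 1 lower (Igfbp2). Its feedback inhibitors Socs2 (75.04, 34.3, 25.8 and 84.3 CPM) and Cish (15.5, 6.23, 3.30 and 44.6 CPM) were lower with KRG than in control and higher with BPA and KRG than with BPA. Ghr, the hormone's receptor, stood at 219, 182, 177 and 201 CPM, and Igf1 at 1329, 1123, 1002 and 1254. Estrogen receptor alpha (Esr1) stood at 24.3, 12.6, 17.2 and 23.5 CPM, with overlapping sides.

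Cholesterol synthesis was lower with ginseng over most of its steps. Of 28 measured genes of the pathway and its regulators, 20 were lower without overlap (71.4%, against 15.4% of all genes), 0 were higher, and the difference was below 0 in all 28. The median was -0.54 (log2), made up of -0.73 without BPA and -0.38 with it. Under total count scaling 18 were lower (64.3%, against 10.6%), and without the BPA library 22 were (78.6%, against 31.9%). Hmgcs1 (chr13:119690351-119708260), which makes HMG-CoA at the head of the pathway, stood at 1086, 1335, 648 and 634 CPM. The difference was -0.91 ± 0.19 (log2, SE, edgeR adjusted p = 0.815, DESeq2 adjusted p = 0.0333). Further along the pathway, Mvd stood at 115, 134, 32.1 and 97.3 CPM, Idi1, the isopentenyl diphosphate isomerase, at 30.0, 17.8, 6.87 and 12.2, and Fdps, the farnesyl diphosphate synthase, at 178, 190, 124 and 124. Mvd and Idi1 were lowest with KRG alone, while Fdps was equal in both ginseng libraries. Sqle, the squalene epoxidase that opens the sterol branch, stood at 82.6, 78.6, 19.2 and 54.9 CPM. Cyp51 (chr5:4080674-4104697), the lanosterol demethylase, stood at 457, 412, 172 and 221 CPM (log2 difference -1.15 ± 0.20 SE, edgeR adjusted p = 0.559, DESeq2 adjusted p = 0.00256). Msmo1, the sterol methyl oxidase, stood at 316, 431, 146 and 247 CPM. In Mvd, Idi1, Sqle, Cyp51 and Msmo1 the library given KRG alone was the lowest of the 4, and the combined library lay between it and the no-ginseng side. The regulators overlapped for the most part: Srebf2, the factor that drives the pathway, stood at 25.03, 21.6, 14.2 and 29.1 CPM, and Insig1, its sterol-regulated retention protein, at 150, 127, 64.9 and 164.

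**Figure D3:**
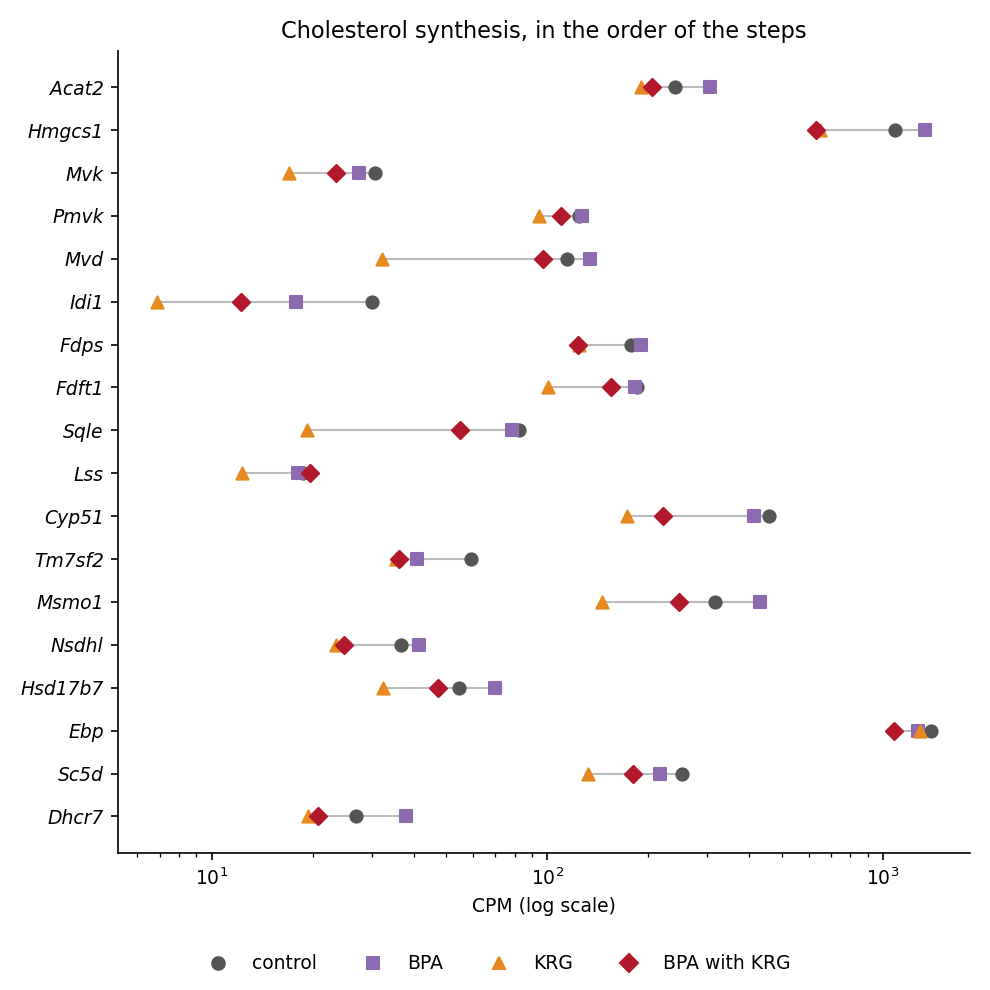
CPM on a log axis for 18 enzymes of cholesterol synthesis in pathway order from the top, in the 4 liver libraries; points are single libraries and grey lines span them. The ginseng libraries lie to the left of the others for most enzymes, with Sqle at 19.2 and 54.9 against 82.6 and 78.6 CPM, while Lss and Ebp overlap.

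The promoters of this pathway share a short motif. The letters CCAAT, read on both strands (ATTGG on the other), occur in RefSeq windows of 18 of the 20 measured pathway genes with a window (90.0%). They occur in 13 of the 15 lower genes and in 5 of the 5 overlapping ones, so presence did not part the lower genes from the rest. The share was 42.9% over 5182 liver genes tested and 41.1% over all 27025 windows, 66.7% in fatty acid synthesis and 18.2% in the acute phase list. The sterol element written as TCACNCCAC occurred in 1 of the 20 (5.0%), against 1.49% of liver genes tested. CCAAT is the core known to bind the factor NF-Y, a partner of SREBP, and a match of letters is a description and not a site. The windows of the 2 genes with the widest gaps are shown (GRCm38.p6, 250 bases before to 50 after the start, capitals marking CCAAT or ATTGG), Cyp51 at chr5:4104648-4104947 on the minus strand with 1 match and Hmgcs1 at chr13:119690101-119690400 on the plus strand with 4.
Cyp51: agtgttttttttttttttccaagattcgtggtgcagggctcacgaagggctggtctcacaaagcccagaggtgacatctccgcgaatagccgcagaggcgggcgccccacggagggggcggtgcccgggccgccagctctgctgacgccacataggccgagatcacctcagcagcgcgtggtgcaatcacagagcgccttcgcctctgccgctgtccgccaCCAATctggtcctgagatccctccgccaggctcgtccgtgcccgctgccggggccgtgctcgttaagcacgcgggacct
Hmgcs1: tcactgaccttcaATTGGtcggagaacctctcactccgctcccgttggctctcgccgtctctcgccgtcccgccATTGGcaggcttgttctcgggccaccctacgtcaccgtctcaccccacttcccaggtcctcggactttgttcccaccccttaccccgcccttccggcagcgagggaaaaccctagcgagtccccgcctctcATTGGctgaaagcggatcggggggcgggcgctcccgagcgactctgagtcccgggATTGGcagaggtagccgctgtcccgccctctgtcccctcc

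Fatty acid and triglyceride synthesis was lower in 13 of 26 measured genes (50%, against 15.4% of all genes) and higher in 1, with a median of -0.28 (log2). Under total count scaling 9 were lower (34.6%, against 10.6%), and without the BPA library 15 were (57.7%, against 31.9%). Elovl5, an elongase of polyunsaturated chains, stood at 880, 766, 537 and 447 CPM, with a gap of -0.51. Fads2, the delta-6 desaturase, stood at 51.4, 33.8, 21.5 and 24.8 CPM, and Scd1, which makes oleate, at 1700, 2075, 1334 and 888. Fasn, the fatty acid synthase, stood at 539, 693, 400 and 500 CPM, with control and the combined library close to each other. The exception upward was Pklr, the liver pyruvate kinase, at 25.8, 25.9, 45.2 and 27.3 CPM, which rested on the library given KRG alone. Srebf1, the factor that drives this set, overlapped at 72.9, 19.7, 46.1 and 92.4 CPM, as did Lpin1, a phosphatidate phosphatase, at 114, 387, 509 and 82.5.

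Lipoprotein and oxidation genes had smaller shares. Of 27 apolipoprotein and lipoprotein genes, 8 were lower (29.6%, against 15.4% of all genes) and 1 higher, with a median of -0.06 (log2). Lpl, the lipoprotein lipase, stood at 39.8, 32.6, 24.4 and 13.1 CPM. Apoc2, its cofactor, stood at 354, 380, 228 and 212 CPM, and 98.0% of its 3' stretches are shared with the annotated transcript Gm44805. Of 31 PPARA targets and oxidation genes, 9 were lower (29.0%, against the same 15.4%) and 1 higher, and Acaa1a, a peroxisomal thiolase, stood at 569, 645, 396 and 378 CPM. In bile acid metabolism 6 of 30 were lower (20%) and 0 higher, a share near the 15.4% of all genes. Beside Cyp7b1 they included Cyp27a1, the sterol 27-hydroxylase, at 190, 168, 137 and 98.6 CPM, while Cyp7a1, the rate-limiting enzyme of bile acid synthesis, overlapped at 106, 122, 142 and 99.6. Heat shock and endoplasmic reticulum genes had 8 of 31 lower (25.8%, against 15.4%) and 0 higher, but under total count scaling 4 were lower (12.9%, against 10.6%), which is near the background, and 1 higher. Their widest gap was that of Hyou1, an endoplasmic reticulum chaperone, at 167, 125, 96.7 and 97.1 CPM.

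**Figure D4:**
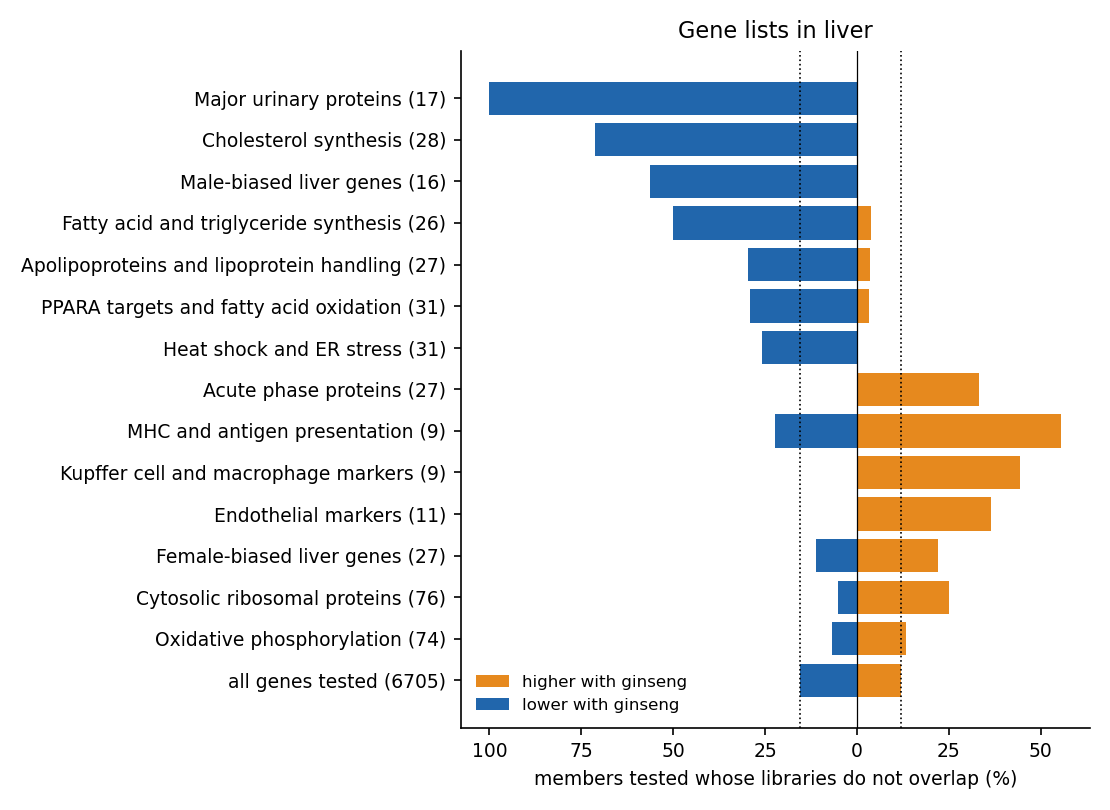
Bars give the percent of measured members of each gene list that were higher (orange, to the right) or lower (blue, to the left) in both ginseng libraries than in both others, with the number measured in brackets; dotted lines mark the shares over all genes, 12.1% and 15.4%. Major urinary proteins (100% lower) and cholesterol synthesis (71.4% lower) reach farthest to the left. Female-biased genes stand at 22.2% higher and 11.1% lower, and oxidative phosphorylation at 13.5% and 6.76%.

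A group of neighbouring genes on chromosome 4 lay in opposite directions in the same libraries. It was chosen for description after its values were seen. Ccl27a (chr4:41769467-41774225), a chemokine, stood at 10.4, 10.5, 46.5 and 53.0 CPM (log2 difference 2.25 ± 0.18 SE, edgeR adjusted p = 0.144). Its copy Ccl27b (chr4:42650563-42656008) stood at 63.3, 69.5, 27.4 and 28.3 CPM, and the sum of both was 73.6, 80.0, 73.9 and 81.3. The sum was thus 1.00 times as high with KRG as in control and 1.02 times as high with both as with BPA. With Gm13306 added, a near-identical copy of Ccl27b, the sum was 141.5, 145.7, 104 and 109 CPM, or 0.74 and 0.75 times as high. Il11ra1 (chr4:41760443-41769473), a receptor chain of interleukin-11, stood at 88.0, 104, 127 and 131 CPM, and its copies Il11ra2 at 204, 186, 91.4 and 84.6 and Gm13305 at 203, 185, 90.0 and 83.8. With Gm2002 these receptor genes summed to 599, 569, 356 and 342 CPM, or 0.60 times as high with KRG as in control and 0.60 times as high with both as with BPA. Gm13306 (chr4:42153404-42158846) stood at 67.9, 65.7, 30.4 and 27.8 CPM. Vcp (chr4:42979964-43000507), an ATPase that extracts proteins for degradation, lies next to this group and stood at 158, 149.5, 276 and 299.9 CPM. Of 28 genes measured between 41 and 44 Mb, 3 were higher and 9 lower, and 5 had a 2-fold gap. Over all genes 12.1% were higher and 15.4% lower, and 0.104% and 0.358% had such a gap. The copies share sequence: 97.2% of the 3' stretches of Ccl27b, all of those of Il11ra2 and Gm13306, and 60.8% of those of Ccl27a occur elsewhere, against 31.1% each for Il11ra1 and Gm13305, and the annotations of Ccl27b and Il11ra2 overlap. Reads may therefore be divided among copies by the authors' mapping, or counted at more than 1 copy. Il11ra2 and Gm13305 held nearly equal counts in each library (3189 and 3172, 2273 and 2262, 1330 and 1310, and 1092 and 1081). If the same reads were counted at several copies, the sums above count them more than 1 time. Vcp has no shared stretch.

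**Figure D5:**
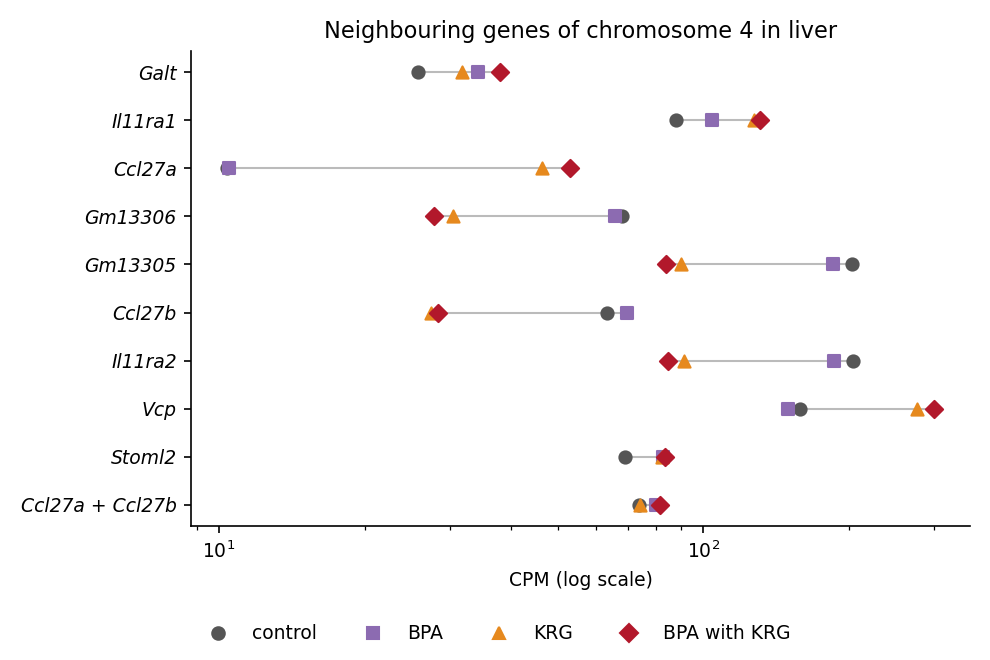
CPM on a log axis for neighbouring genes of chromosome 4 in genome order from the top, in the 4 liver libraries, with the sum of Ccl27a and Ccl27b at the bottom. Ccl27a, Vcp and, by a smaller gap, Il11ra1 are higher and Gm13306, Gm13305, Ccl27b and Il11ra2 lower in both ginseng libraries. The sum of Ccl27a and Ccl27b lies between 73.6 and 81.3 CPM. Sums that also take in the copy Gm13306, or the receptor genes, were lower with ginseng (0.74 and 0.75 times, and 0.60 and 0.60 times). Such sums may count shared reads more than 1 time.

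In uterus the same group was parted in a different way. There Ccl27a stood at 22.1, 10.2, 25.01 and 194 CPM, Ccl27b at 115, 57.2, 157 and 3.06, Il11ra2 at 318, 170, 426 and 9.72 and Vcp at 119, 152, 138 and 547. The combined library alone was far from the rest in all 4 genes, and the uterus library given KRG alone lay nearer to the no-ginseng ones. Cwc22, a splicing factor, was lower with ginseng in both tissues, at 23.7, 31.2, 9.89 and 9.38 CPM in liver and 164, 377, 54.3 and 126 in uterus. Of the 3' stretches of Cwc22, 23.2% occur in other genes. Whether these values follow the animals' genotype or the treatment cannot be told apart with 1 library per group of an outbred stock.

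Of the other genes with the widest gaps, Snrnp25, a protein of the minor spliceosome, stood at 13.7, 14.7, 47.1 and 37.0 CPM (log2 difference 1.55 ± 0.20 SE, edgeR adjusted p = 0.401). Eif4ebp2, a repressor of cap-dependent translation, stood at 16.3, 14.0, 36.3 and 44.7 CPM. Dusp1, a phosphatase of MAP kinases, stood at 20.6, 21.5, 52.4 and 42.7 CPM. In these 3 genes the 2 libraries of each side lay close together. Rad51b, a recombination factor, stood at 58.1, 56.8, 105 and 104 CPM, and Pcp4l1 at 17.4, 20.9, 39.7 and 40.5. Serpina12, the adipokine vaspin, stood at 28.9, 22.9, 10.6 and 5.97 CPM. Ly6a, a surface protein of the Ly6 family, stood at 19.6, 19.0, 3.64 and 9.22 CPM and passed the filter through its no-ginseng libraries. The sides of these 4 genes did not overlap, and the ginseng libraries of Serpina12 and Ly6a differed from each other more than their no-ginseng libraries did. Cdh1, the epithelial cadherin, stood at 214, 237, 115 and 119 CPM, and Lrpprc, which stabilizes mitochondrial messenger RNA, at 347, 359.5, 211 and 175. LOC100048884, for which no name was found in the tables used, stood at 110, 88.8, 11.5 and 22.0 CPM. Its log2 ratios, -3.14 without BPA and -1.97 with it, lay near those of Mup16, at -3.20 and -1.95. Whether LOC100048884 belongs to the MUP family was not settled, and it is not in the MUP counts and sum. The zinc importer Slc39a4 stood at 51.2, 43.2, 29.7 and 28.0 CPM, lower in the libraries in which the metallothioneins were higher.

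Several lists had shares near or below those of all genes, 12.1% higher and 15.4% lower. Of 30 genes of CAR and PXR, the receptors that sense foreign compounds, 4 were higher (13.3%) and 5 lower (16.7%). Cyp3a11 stood at 1335, 959, 1035 and 934 CPM and Cyp2b10 at 27.3, 63.4, 27.6 and 48.0, both overlapping, while Cyp1a2 was lower at 350, 374, 261 and 237. Glutathione and NRF2 genes had 5 higher and 7 lower of 39 (12.8% and 17.9%), and complement and coagulation 7 and 8 of 42 (16.7% and 19.0%). Urea cycle and amino acid genes had 3 and 2 of 29 (10.3% and 6.9%), and oxidative phosphorylation 10 and 5 of 74 (13.5% and 6.76%). Cytosolic ribosomal proteins lay above the share of higher genes, with 19 of 76 higher (25%) and 4 lower (5.26%), but their median difference was 0.08 (log2). Under total count scaling 35 of them were higher (46.1%, against 17.1% of all genes).

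In uterus 1368 of 9198 genes (14.9%) were higher with ginseng and 1160 (12.6%) lower, with 2 (0.0217%) and 8 (0.087%) past a 2-fold gap, and edgeR called 0 at an adjusted p under 0.05 and 402 at an unadjusted one. Of the 812 genes higher in liver, 746 were measured in uterus, where 97 were higher, 13% of those measured and 9.31% of the uterus genes higher and measured in both tissues, and 86 were lower. Over the 5968 genes measured in both tissues, the background for these shares, 1042 were higher in uterus and 591 lower. Of the 1034 lower in liver, 895 were measured there, where 59 were lower, 6.59% of those measured and 9.98% of the uterus genes lower and measured in both, and 194 were higher. The shares in the same direction, 13% and 6.59% of those measured, were both below the matching shares of the 5968 genes. Saa1 in uterus stood at 1.17, 0.69, 92.1 and 0.95 CPM, so that the library given KRG alone was high and the combined one was not. Hepatocyte markers in uterus summed to 1992, 719, 3720 and 775 CPM, and were thus also highest in the library given KRG alone. The part of liver RNA in the Saa1 values of uterus was not tested. Cholesterol synthesis in uterus had 5 of 24 genes higher (20.8%, against 14.9% of all uterus genes) and 1 lower (4.17%, against 12.6%), with a median of 0.17 (log2). Fatty acid synthesis had 14 of 28 higher (50%) and 1 lower (3.57%), beside adipocyte markers with 5 of 9 higher (55.6%), whose part in it was not tested. The difference between tissues in the ginseng effect was tested in 1 edgeR fit of all 8 libraries, a fit chosen after values were seen. It called 0 of 5968 genes, with a smallest adjusted p of 0.659 and 327 genes at an unadjusted p under 0.05 (65 with liver above uterus and 262 below). For Hmgcs1 the liver effect minus that of uterus was -1.43 on the log2 scale (± 0.36 SE, edgeR adjusted p = 0.851), and in uterus the gene stood at 147, 203, 263 and 221 CPM.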

How the data were processed

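Liver and uterus RNA (500 ng per library) was sequenced in 8 libraries, 1 per treatment and tissue. Each deposited file gives raw counts for 1 library over 23282 gene rows; 44 rows carry a symbol already used and were kept apart. Per the submitters' processing notes, Bowtie2, edgeR and the mm10 build were used; how reads were counted, shared between several matches or assigned to a strand is not given in the sources used here, so near-identical copies and overlapping genes are uncertain.

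TMM scaling (edgeR 4.0.16, R 4.3.3) was applied within liver, and genes averaging at least 10 CPM were kept. Differences are of means of log2(CPM + 1). A gene was called higher or lower in the descriptive counts when the 2 libraries of one side lay beyond both of the other, and the gap is the distance between the nearest libraries. The test was edgeR's quasi-likelihood test with an additive BPA term and Benjamini-Hochberg adjustment over all 6705 genes, checked on simulated counts. DESeq2 1.42.0, other scalings, filters and pseudocounts, and leaving out each library were alternatives. Precision rests on the counts: 1 count was worth between 0.0654 and 0.0808 CPM in liver.

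The genes named were the 20 higher and 20 lower with the largest gap, families taking 1 place, the 4 members of each list with the largest gap in each direction, and Cyp7a1, Esr1, Cyp3a11, Cyp2b10, Alb, Ghr, Igf1, Stat3, Nr1h4 and Srebf2. Part of them is described, some members of the cholesterol list are counted but not reported here by name, and other members of a list were named after their values were seen. The comparison, gene lists and rules were chosen with earlier results of these data known. Coordinates and promoter windows are RefSeq's on GRCm38.p6, the same assembly as mm10.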

Additional observations from a re-analysis of the deposited data

Results flagged for a closer look

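In 6 gene lists the median log2 ratio with ginseng had opposite signs without and with BPA and was beyond 0.25 in size in both. Further lists had opposite signs with 1 or both medians under that size, such as female-biased genes (-0.19 and 1.01), and are left out here. The difference between the 2 ratios rests on 1 library per group and was not tested. For growth hormone and STAT5 signalling the median was -0.38 without BPA and 0.31 with it, a difference of 0.69. For glucose and glycogen genes it was 0.31 and -0.37, a difference of -0.68. Adipocyte markers, with 3 genes measured, had -0.32 and 0.38, a difference of 0.70. Erythroid markers had 0.66 and -2.10, a difference of -2.76 (-2.755). Skeletal muscle markers had 1.44 and -0.29, a difference of -1.73, and acinar pancreas markers 0.54 and -5.25, a difference of -5.79. In the acinar list the BPA library was the high one.

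For 3 of the genes named in liver the libraries of uterus did not overlap either and lay in the opposite direction. Rad51b differed by -0.49 (-0.485, log2) in uterus and 0.85 in liver, Hmgcs1 by 0.48 and -0.91, and Gm15417 by 0.60 and -1.09. The difference between tissues was tested for each in edgeR's fit of all 8 libraries, and the adjusted p was 0.851 in each case.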

How the results depend on the processing

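The number of genes called by edgeR depended on the tool and the filter. DESeq2 called 12 higher and 37 lower, total count scaling 1 higher, and no expression filter 5 higher and 20 lower. Leaving out 1 library gave 0 to 0 higher and 0 to 12 lower, the 12 without the control library. Non-overlapping genes numbered 1651 higher and 1598 lower at a mean of 1 CPM, and 2396 and 2163 with no filter, which test more genes. Leaving out 1 library, which leaves 3 to compare, gave 1916 to 2083 higher and 2066 to 2573 lower, and 23 to 42 and 40 to 57 past a 2-fold gap. With a pseudocount of 5 CPM 4 genes were higher past that gap. The acute phase median was 0.38 at a mean of 1 CPM and 0.0323 to 0.4127 when 1 library was left out, the lowest without the library given both. Leaving out 1 library kept the sign of the median for major urinary proteins (-2.76 to -2.01), male-biased genes (-0.90 to -0.37), cholesterol synthesis (-0.70 to -0.38) and fatty acid synthesis (-0.38 to -0.20). It turned the sign for female-biased genes (0.45, and -0.15 without the BPA library), acinar markers (-2.54, and 0.54 without the BPA library) and muscle markers (0.58, and -1.33 without the BPA or -2.10 without the KRG library). Signs turned in further lists too. Without the library given both, PPARA targets went from -0.10 to 0.07 and erythroid markers from -0.71 to 0.11. Without the KRG library, growth hormone and STAT5 genes went from -0.06 to 0.20. For major urinary proteins, male-biased genes and cholesterol synthesis the sign could not turn, because most members were separated lower with all libraries in. Of 1940 values of 194 named genes under alternatives, 0 reversed and 43 moved, 20 with the larger pseudocount and 23 under total count scaling. For genes named by their separation, leaving out a library could not undo or reverse it, so those values were fixed beforehand. No paired analysis was possible because the labels give 1 library per group and no replicate numbers that pair them. With 1 library per treatment, animal and treatment cannot be told apart, and depth limits genes of few counts such as S100a9.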
